A study of Mus musculus with 7 samples.

Results

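The genes described here are S100a8, S100a9, S100a4, S100a6, S100a10 and S100a11, members of the S100 family of small calcium-binding proteins. They were taken by symbol, as 6 of the 27998 gene rows of the CD45+ libraries and 6 of the 31053 gene rows of the CD11b+ pools, and all 6 were found in each of the 7 matrices. No measured value entered this rule, but the members were chosen with earlier results of these data known.

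S100 proteins carry EF-hand motifs that change shape when calcium binds, and most work as dimers that then grip a partner protein. S100a8 and S100a9 pair into calprotectin, a major protein of the neutrophil cytosol that is also made by monocytes and that binds zinc and manganese. When released from cells it can act on the receptor TLR4, and in the infarcted heart it is known as an alarm signal of infiltrating neutrophils. S100a10 is held with annexin A2 at membranes, S100a4 binds non-muscle myosin and is linked to cell movement, S100a6 (calcyclin) binds Cacybp, and S100a11 binds annexin A1.

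The cells came from hearts of C57BL6/J mice after permanent ligation of the left anterior descending coronary artery, a model of myocardial infarction. Male mice gave 5 libraries of CD45+ leukocytes, at steady state and on days 1, 3, 5 and 7, each from 5 pooled mice except day 7 (3 mice); blood leukocytes were marked in vivo with an antibody to CD45.2 and gated out, and part of the neutrophils was removed before the sort. A second library held CD11b+ myeloid cells of male infarcted hearts, pooled after hashtag antibodies had marked days 1 (5 mice), 3 (5 mice) and 5 (3 mice). The last library held CD11b+ cells of blood and heart from mice without surgery, after sham surgery and after infarction, sorted to about equal parts of Ly6G+ and Ly6G- cells, in 7 hashtags that the labels do not tie to a condition. For that pool each hashtag is given by its number and none is compared.

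Values are UMIs (tagged molecules) of a gene as a share of all UMIs of the cells summed, scaled to 1000000 and written CPM. They count the 3' end of each molecule, so they were not divided by gene length. Cells used per CD45+ library ranged from 522 to 1793. The heart pool gave 4282 cells and the blood and heart pool 9999. Median UMIs per cell ran from 3594 to 9464 in the CD45+ libraries and reached 18083 in the heart pool, where 17.4% of barcodes exceeded the mitochondrial limit and were left out. Neutrophils were 41.4% of the cells on day 1 of the CD45+ libraries, 135 of 846 cells on day 3, and 4.23% and 1.56% on days 5 and 7, against 1.10% at steady state. Libraries shared from 0 to 2 barcodes among the CD45+ set and 28 between the pools. Intervals in brackets are exact 95% Poisson or binomial intervals and cover counting error only. Cell classes were named from marker genes that include no S100 gene, so each name means "-like", and the S100 genes took no part in the clustering.

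All 6 genes lie on mouse chromosome 3, as do 14 of the 18 protein-coding S100 genes of GENCODE M21 (build GRCm38). S100a4 (ENSMUSG00000001020, chr3:90603771-90606045, + strand), S100a6 (ENSMUSG00000001025, chr3:90612882-90624181, +), S100a8 (ENSMUSG00000056054, chr3:90668978-90670035, +) and S100a9 (ENSMUSG00000056071, chr3:90692632-90695721, - strand) stand next to each other in that order. S100a11 (ENSMUSG00000027907, chr3:93520488-93526287, +) and S100a10 (ENSMUSG00000041959, chr3:93555080-93564643, +) stand farther along, and the 6 genes span 2960.9 kb.

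The bases upstream of 4 of them are shown because of their orders of levels across cells. S100a8 and S100a9 had almost the same order, S100a4 had neutrophils last, and S100a11 had neutrophils first and dendritic cells next. The bases come from RefSeq (GRCm38.p6), run 5' to 3' on the gene's own strand and stop before the first exon of RefSeq and GENCODE. Capitals mark 4 searched motifs: TATAAA (the TATA box, gene strand), TTGCNNAA (C/EBP), GAGGAAG (PU.1, whose reverse is CTTCCTC) and TGANTCA (AP-1), the last 3 on both strands and none overlapping another here.
S100a8, chr3:90668821-90668977, + strand: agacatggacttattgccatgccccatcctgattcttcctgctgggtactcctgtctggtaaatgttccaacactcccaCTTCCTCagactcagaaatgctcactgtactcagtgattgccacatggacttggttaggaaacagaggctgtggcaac
S100a9, chr3:90695722-90695971, - strand: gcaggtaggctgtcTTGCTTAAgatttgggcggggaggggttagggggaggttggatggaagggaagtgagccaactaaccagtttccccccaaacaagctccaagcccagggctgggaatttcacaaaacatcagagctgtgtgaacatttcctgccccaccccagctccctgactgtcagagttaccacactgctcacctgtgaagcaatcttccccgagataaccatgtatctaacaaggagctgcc
S100a4, chr3:90603620-90603769, + strand: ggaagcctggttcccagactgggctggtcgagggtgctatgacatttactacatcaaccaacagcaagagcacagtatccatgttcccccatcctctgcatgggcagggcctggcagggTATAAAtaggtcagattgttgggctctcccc
S100a11, chr3:93520346-93520487, + strand: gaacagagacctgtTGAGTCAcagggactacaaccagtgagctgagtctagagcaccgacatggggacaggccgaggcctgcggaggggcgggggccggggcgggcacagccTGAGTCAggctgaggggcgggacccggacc

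In the RefSeq windows of 300 bases (250 before and 50 after the start), TATAAA stood 30 bases before the start of S100a8, 31 before that of S100a4 and at the start of S100a9, and 8.32% of 32851 promoters hold it. A PU.1 match stood 171 bases before the start of S100a8, and another lay after the start of S100a4 (13.6% of promoters). The C/EBP match of S100a9 began 236 bases before its start (10.8% of promoters). S100a11 held an AP-1 match at 136 and at 38 bases before its start (7.81% of promoters), and S100a6 held none of the 4 motifs. These are matches of letters, not tested sites, and S100a10 is named only.

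S100a8, S100a9 and S100a11 had their highest levels in neutrophils, where S100a8 and S100a9 stood above every other class with no overlap, and S100a4 and S100a10 were at their lowest there. Over the 6 neutrophil sums with at least 30 cells, S100a8 ran from 19649 to 113226 CPM with a median of 34138. Those sums did not overlap the 8 monocyte/macrophage sums (43.2 to 12485, median 228), the 4 dendritic sums (29.0 to 251, median 66.8) or the single day 7 sums of B cells (129), T cells (108) and NK cells (93.2). S100a9 had the same first and second class, at a median of 26930 CPM in neutrophils (19983 to 57973) and 197 CPM in monocytes/macrophages (30.0 to 2248). S100a9 then stood at 68.9 in B cells, 63.8 in NK cells, 60.0 in T cells and 42.4 in dendritic cells (38.0 to 310).

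Together the pair held 17.1% of all UMIs of the CD45+ day 1 neutrophils, and 8.42%, 5.34% and 4.51% of those of days 3, 5 and 7. In the heart pool the pair held 7.58%, 4.05% and 5.27% of neutrophil UMIs on days 1, 3 and 5. In the monocytes/macrophages of CD45+ day 1 they held 1.47%. A CPM of another gene is a share of a total that contains these UMIs, so the fits were also run with the pair left out of the totals.

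S100a11 was also highest in neutrophils. Its 6 neutrophil sums (2284 to 5214 CPM, median 3234) did not overlap the dendritic sums (810 to 1692) that came next. Its monocyte/macrophage sums spread from 196 to 2202 CPM (median 637) and covered the single values of NK cells (589), T cells (564) and B cells (336). S100a6 separated the myeloid classes less. Its medians were 2208 CPM in neutrophils (1910 to 4583), 1625 in dendritic cells (1336 to 1968) and 1552 in monocytes/macrophages (416 to 3133), all overlapping, and T cells stood at 1047, NK cells at 446 and B cells at 412.

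S100a4 and S100a10 had neutrophils in the last place. S100a4 was highest in dendritic cells (median 1452 CPM, 621 to 2115), overlapped there with monocytes/macrophages (median 687, 204 to 1873), and stood at 423 in T cells, 103 in NK cells and 56.5 in B cells. Its neutrophil sums ran from 19.1 to 103 CPM, below all 8 monocyte/macrophage sums, and the lowest of them rests on 2 UMIs (2.31 to 69.0 CPM). S100a10 was at 912 CPM in NK cells, 801 in monocytes/macrophages (521 to 1341), 768 in T cells and 502 in dendritic cells (359 to 848), all overlapping neighbours. B cells followed at 307 CPM and neutrophils came last at 55.3 to 139. These orders are a description over classes that share libraries, and no test was run on them. The low S100a4 and S100a10 levels of neutrophils held for classes taken from clusters. With each cell classed by its own markers, the neutrophil sums of days 1, 3 and 5 ran from 196 to 1576 CPM for S100a4 and from 95.2 to 744 for S100a10 and overlapped those of monocytes/macrophages, as did those of S100a11 (1629 to 3757), while S100a8 (16692 to 55682) and S100a9 (14554 to 33829) did not.

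**Figure D1:**
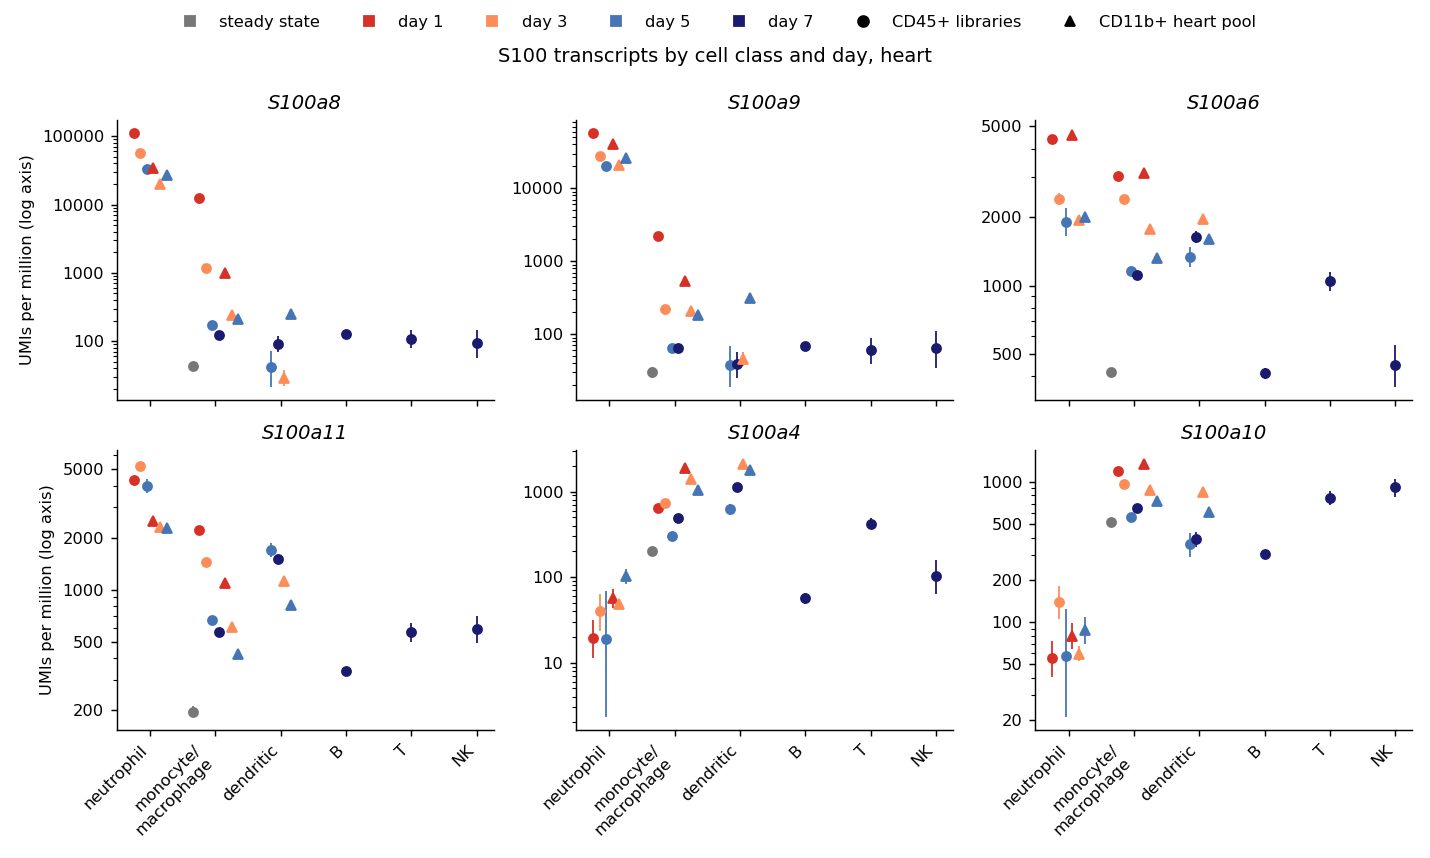
CPM (log axis) of each S100 transcript in each cell class of the heart, 1 point per sum of at least 30 cells, coloured by day, with circles for the CD45+ libraries, triangles for the CD11b+ heart pool and bars for exact 95% Poisson intervals. S100a8 and S100a9 stand highest in neutrophils with no overlap, while S100a4 runs from 19.1 to 103 in neutrophils and from 204 upward in monocytes/macrophages.

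In neutrophils S100a9 and S100a6 fell from day 1 to day 5, and no other of the 6 genes passed the test there. Raw S100a8 levels in the CD45+ neutrophils were 113226, 56123, 33432 and 28048 CPM on days 1, 3, 5 and 7 (28 cells on the last), with 38988 at steady state (7 cells). In the heart pool they were 34844, 19649 and 26942 CPM on days 1, 3 and 5. Day 1 was the highest in both sets, but the order of days 3 and 5 differed between them.

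S100a9 read 57973, 28059, 19983 and 17092 CPM on days 1, 3, 5 and 7 of the CD45+ neutrophils and 40993, 20869 and 25800 CPM on days 1, 3 and 5 of the pool. S100a6 read 4414, 2409, 1910 and 1014 CPM in the CD45+ set and 4583, 1945 and 2008 in the pool, where the level of day 1 was 2.28 times that of day 5. For both genes the 2 sums of day 1 lay above all 4 sums of days 3 and 5, and the share of all genes with this order was not counted.

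Days were compared with edgeR's quasi-likelihood test on the 6 neutrophil sums (days 1, 3 and 5 of both sets), with the experiment as a block and Benjamini-Hochberg adjusted p-values over all genes tested. From day 1 to day 5 the log2 change was -2.08 for S100a9 (SE 0.61, edgeR adjusted p = 0.0457) and -2.20 for S100a6 (SE 0.47, edgeR adjusted p = 0.0096). Thus 2 of the 6 genes were lower and 0 higher, where 7.70% of the 6197 genes tested were called, 5.60% lower and 2.10% higher. S100a8 changed by -2.01 (SE 0.67) and missed the threshold (edgeR adjusted p = 0.0713). The values of the others were -1.12 for S100a11 (0.138), -0.72 for S100a10 (0.405) and -0.11 for S100a4 (0.918), with edgeR adjusted p in brackets.

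Within each set alone, the scaled log2 change of S100a9 from day 1 to day 5 was -2.81 in the CD45+ libraries and -1.46 in the pool. S100a6 gave -2.48 and -1.99, and S100a8 gave -3.03 and -1.17. S100a4 went -1.03 in the CD45+ set and 0.05 in the pool. Each sum pools mice, so each day has 1 sum per experiment. With the experiment as a block, p-values measure how far the day changes differ between the 2 experiments, not between mice. The estimate of this spread is in part shared over genes. The comparisons with day 1 share its sums.

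The calls in neutrophils rest on few cells: the CD45+ day 5 sum holds 40 neutrophils, and without it 0 of the 6 genes passed. S100a9 also lost its call without the day 3 sum of either set, and S100a6 kept its call in the 5 other fits that leave out a sum. Scaling mattered too. With total counts in place of TMM factors the median change of all neutrophil genes moved by 0.90 on the log2 scale, 1 of the 6 genes passed, and S100a4 (0.81) and S100a10 (0.23) turned positive.

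From day 1 to day 3, 0 of the 6 genes passed in neutrophils by edgeR, against 2.52% of all genes called by edgeR (1.95% lower and 0.565% higher). At an unadjusted p under 0.05 there were 3, and by DESeq2 3. The share of all genes is not given for these counts, so they are not read as a result about the 6 genes. The log2 changes were -1.61 for S100a8 (edgeR adjusted p = 0.197), -1.69 for S100a9 (0.141) and -1.71 for S100a6 (0.0546). From day 3 to day 5, 0 passed by edgeR, 0 had an unadjusted p under 0.05 and 0 passed by DESeq2, with changes between -0.54 and 0.26.

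Markers of another class moved with these days. The 18 monocyte/macrophage markers summed to 983, 2170, 4403 and 7075 CPM in CD45+ neutrophils on days 1, 3, 5 and 7, with 17, 17, 17 and 15 of the 18 detected. In the pool they summed to 1869, 1598 and 2200 CPM with 18 of 18 detected, and their part in the neutrophil changes was not tested. The make-up of the class moved as well: 99.5% of CD45+ day 1 neutrophils fell in a young neutrophil-like cluster led by Ngp, Lcn2 and Camp, and 131 of 135 cells of day 3 and all of days 5 and 7 in an unnamed cluster led by Apoe and Ifi27l2a. In the pool 85.8% of day 1 neutrophils were in a cluster led by Retnlg, Rsad2 and Wfdc17 that held the interferon markers, and 83.2% and 72.1% of days 3 and 5 in a Siglecf neutrophil-like cluster. At Leiden resolution 1.0 a Retnlg and Lcn2 cluster of 477 cells and an interferon cluster of 86 cells stood apart.

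Within those pool clusters the day pattern of S100a8 was not that of the whole class. In the Retnlg and interferon cluster S100a8 read 36393, 42867 and 51784 CPM on days 1, 3 and 5, and in the Siglecf cluster 20653, 14602 and 19400. S100a6 kept its high day 1 value in the Siglecf cluster (5398, 1258 and 1434 CPM) but not in the Retnlg and interferon cluster (4494, 5106 and 3896). These are single sums with no test, and the Siglecf cluster held 36 cells on day 1.

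In monocytes/macrophages S100a4, S100a6, S100a10 and S100a11 all fell from day 1 to day 5. S100a8 and S100a9 had the widest change in value and missed the threshold in the fit of the report. S100a8 read 12485, 1170, 174 and 125 CPM on days 1, 3, 5 and 7 of the CD45+ libraries, 43.2 CPM at steady state, and 992, 245 and 211 CPM on days 1, 3 and 5 of the pool. S100a9 read 2248, 220, 64.2 and 64.2 CPM, 30.0 at steady state, and 542, 209 and 185 CPM in the pool. Day 1 stood above days 3 and 5 in each set, but the CD45+ value of day 3 for S100a8 exceeded the pool value of day 1.

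S100a6 read 3015, 2399, 1164 and 1113 CPM on days 1, 3, 5 and 7 (steady state 416), and 3133, 1780 and 1323 in the pool. S100a11 read 2202, 1449, 669 and 567 CPM (steady state 196), and 1095, 606 and 426 in the pool. Both had their lowest value of the CD45+ set at steady state and had a lower value at each step from day 1 to day 5 in both sets.

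S100a10 read 1202, 964, 565 and 648 CPM (steady state 521), and 1341, 872 and 731 in the pool. S100a4 read 638, 736, 304 and 494 CPM (steady state 204), and 1873, 1403 and 1041 in the pool. S100a4 was the only one of the 4 with a CD45+ day 3 value above that of day 1, and its pool sums all lay above its CD45+ sums.

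The fit over 6 monocyte/macrophage sums gave 4 of the 6 genes lower and 0 higher on day 5 than on day 1, where 9.21% of the 10531 genes tested were called, 5.26% lower and 3.95% higher. The log2 changes were -1.78 for S100a11 (SE 0.21, edgeR adjusted p = 0.0114), -1.55 for S100a6 (SE 0.20, 0.0147), -1.22 for S100a10 (SE 0.19, 0.0215) and -1.19 for S100a4 (SE 0.24, 0.0380). S100a8 changed by -4.29 (SE 1.00, edgeR adjusted p = 0.0532) and S100a9 by -3.62 (SE 0.89, 0.0591). The median change of the 6 genes was -1.66, and that of all genes tested -0.01.

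The 2 sets differed most for the pair. The scaled log2 change of S100a8 from day 1 to day 5 was -6.46 in the CD45+ libraries and -2.43 in the pool, and that of S100a9 was -5.43 and -1.75. For the other 4 genes the sets were within 0.50 of each other, with -2.02 and -1.56 for S100a11, -1.67 and -1.44 for S100a6, -1.39 and -1.08 for S100a10, and -1.37 and -1.05 for S100a4. In the 6 fits that leave out a sum, the change of S100a8 ran from -6.14 to -2.79. Of the 12 alternatives that keep every sum, S100a8 passed the threshold in 5 and S100a9 in 2. The pair's miss of the threshold thus depended on the processing. DESeq2 called all 6 genes, a count for which the share of all genes is not given. S100a4 and S100a10 lost their calls without the CD45+ day 5 sum, while S100a6 and S100a11 kept theirs in all 6 fits.

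From day 1 to day 3, 0 of the 6 genes passed in monocytes/macrophages by edgeR, where 0.104% of all genes were called by edgeR (0.0950% lower and 0.00950% higher). At an unadjusted p under 0.05 there were 5, and by DESeq2 4. The share of all genes is not given for these counts either. The log2 changes were -3.19 for S100a8, -2.88 for S100a9, -0.95 for S100a11, -0.78 for S100a6, -0.69 for S100a10 and -0.31 for S100a4. From day 3 to day 5, 0 passed by edgeR and by DESeq2, with changes between -1.11 and -0.54. At an unadjusted p under 0.05 there were 4, again without the share of all genes.

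**Figure D2:**
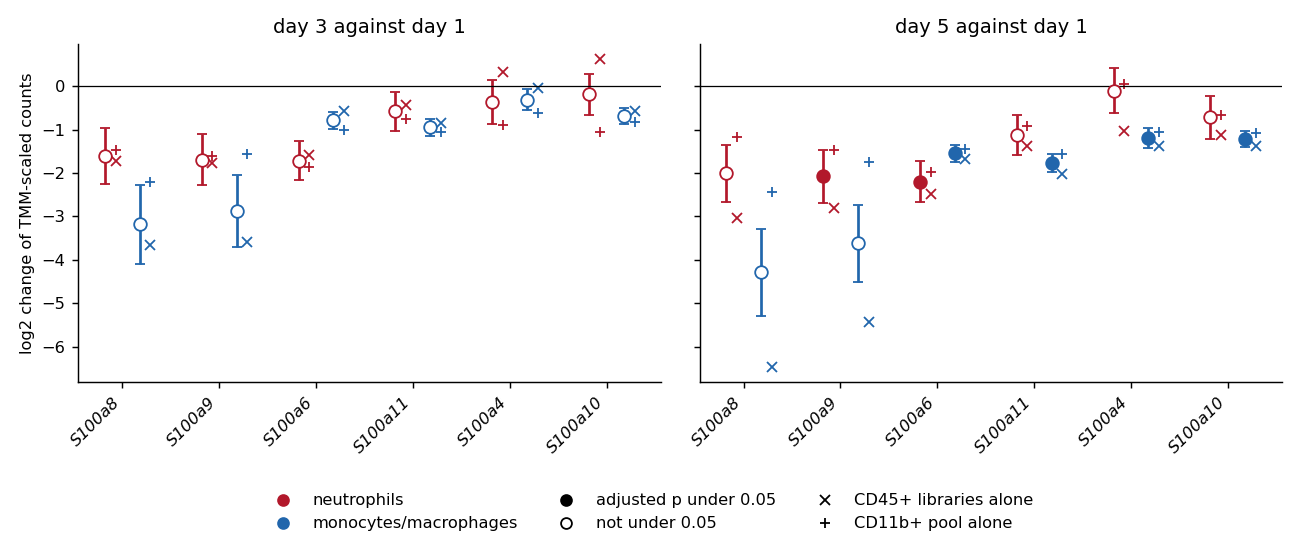
Log2 change of TMM-scaled counts for each S100 gene from day 1 to day 3 (left) and to day 5 (right), red for neutrophils and blue for monocytes/macrophages; circles are the edgeR fit with bars of 1 SE (filled where the adjusted p is under 0.05), and crosses and plus signs are the CD45+ libraries and the CD11b+ pool alone. On day 5 the filled circles are S100a9 and S100a6 in neutrophils and S100a6, S100a11, S100a4 and S100a10 in monocytes/macrophages, and the S100a8 marks of the 2 sets lie far apart in monocytes/macrophages.

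Whether the day effects differed between the classes was tested as an interaction over 12 sums. For 0 of the 6 genes did the difference pass by edgeR, between days 1 and 3 (0.0197% of 10153 genes called), days 1 and 5 (0.571%, of which 0.364% lower and 0.207% higher) or days 3 and 5 (0%), with 0 at an unadjusted p under 0.05 and 0 by DESeq2 each time. The largest for days 1 and 5 was S100a8, whose log2 change was lower by 2.24 (difference -2.24, SE 1.06, edgeR adjusted p = 0.310) in monocytes/macrophages. Without the day 1 sum of the pool, S100a8 and S100a9 crossed the threshold for days 1 and 3 and for days 1 and 5. The share of all genes called in that fit is not given, so this is not read as a result about the 6 genes. In S100a6 the difference had the other sign, at 0.69 (SE 0.40, edgeR adjusted p = 0.427).

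Neutrophil markers also moved with the days in monocytes/macrophages. The 14 neutrophil markers summed to 10436, 2220, 864 and 663 CPM on days 1, 3, 5 and 7 of the CD45+ libraries, 147 at steady state, and 2471, 1073 and 821 CPM in the pool. Ly6g was at 0 UMIs at steady state and on days 5 and 7, Stfa2l1 at steady state, and all 14 were detected elsewhere. Per UMI of these markers, S100a8 gave 1.20, 0.527, 0.202 and 0.188 UMIs on days 1, 3, 5 and 7 of the CD45+ set (0.294 at steady state) and 0.401, 0.228 and 0.257 in the pool. The list includes Lcn2 and Slpi, which were also among the leading genes of the CD45+ Arg1 monocyte-like cluster described below. In that cluster Retnlg, another gene of the list, read 295 CPM beside S100a8 at 13561. In the young neutrophil-like cluster of the same set Retnlg read 20178 CPM beside S100a8 at 112141. The part of neutrophil RNA or of cell pairs in the changes of S100a8 and S100a9 was not tested.

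Within the class, S100a8 followed the clusters, whose levels are given here over all days. Of CD45+ day 1 cells, 84.6% were in an Arg1 monocyte-like cluster, led by Cxcl3, Lcn2 and Saa3, that held S100a8 at 13561 CPM and S100a9 at 2363. On day 3, 70.8% were classical monocyte-like, a cluster led by Plac8 and Chil3 with S100a8 at 1179 CPM over all days. On days 5 and 7, 61.1% and 69.1% were Trem2 macrophage-like, a cluster with S100a8 at 141 CPM over all days. At steady state 96.6% were resident-type macrophage-like, a cluster with S100a8 at 66.9 CPM over all days.

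The other 4 genes had a smaller range over the same clusters. S100a6 ran from 421 CPM in resident-type cells through 955 in Trem2 cells and 2496 in classical cells to 3205 in Arg1 cells. S100a11 ran in the same order, at 191, 456, 1670 and 2359 CPM. In the pool, S100a4 was at 1849 CPM in the MHC II macrophage-like cluster, which Plac8, H2-Aa and Chil3 led, and at 916 in the Trem2 cluster. S100a8 there was at 719 in the MHC II cluster, 430 in the Arg1 cluster, 129 in the Trem2 cluster and 49.2 in the cycling cluster.

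Within some single clusters S100a8 was still lower on the later days, but not in all. In the classical cluster of the CD45+ set it read 1562, 296 and 164 CPM on days 3, 5 and 7, whereas S100a6 read 2581, 2106 and 2650 there and S100a4 read 754, 617 and 1440. In the MHC II cluster of the pool S100a8 read 1684, 640 and 570 CPM on days 1, 3 and 5 and S100a6 read 3097, 2554 and 1847. In the Trem2 cluster of the pool S100a8 went the other way, from 67.5 CPM on day 3 to 168 on day 5, while that of the CD45+ set read 266, 146 and 113 on days 3, 5 and 7. Each is 1 sum per day with no test.

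S100a8 and S100a9 in B cells served as a measure of free RNA, since B cells are not a known source of either. On day 7, with 963 B cells, S100a8 was at 129 CPM in B cells (117 to 142; 395 UMIs) and at 125 CPM in monocytes/macrophages (116 to 134). S100a9 was at 68.9 (59.9 to 78.9) and 64.2 CPM (58.2 to 70.7). The B cell level was 103.5% of the monocyte/macrophage level for S100a8 and 107% for S100a9. As a share of UMIs, no monocyte/macrophage level above that of B cells was thus detectable on that day. Per cell the counts stood apart, at 395 S100a8 UMIs in 963 B cells and 796 in 566 monocytes/macrophages, which were deeper. Whether free RNA adds a like share or a like number of UMIs to each cell was not tested.

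At steady state only 10 B cells were present, with 2 S100a8 UMIs (60.9 CPM, 7.38 to 220.0) and 0 of S100a9, against 43.2 and 30.0 CPM in monocytes/macrophages. B, T and NK cells together (51 cells) held S100a8 at 45.3 CPM (21.7 to 83.4), which covers the monocyte/macrophage level. Unthinned shares of cells rise with depth and stood apart on day 7. With each cell thinned to 1000 UMIs, again a measure per UMI, the shares gave the same reading as CPM. S100a8 was then found in 4.01% of steady-state and 11.1% of day 7 monocytes/macrophages (22.9% and 67.5% unthinned, median depth 7230 and 10613 UMIs), and in 12.5% of day 7 B cells (33.5% unthinned, median depth 2756 UMIs). No cell was under 1000 UMIs in these groups.

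On day 1 the monocyte/macrophage level of S100a8 (12485 CPM, 12342 to 12629) was 9.67 times that of the 13 B cells (1291 CPM, 1002 to 1637). For S100a9 it was 3.70 times (2248 against 608 CPM). This level depends on the class rule. With each cell classed by its own markers alone, the CD45+ day 1 monocytes/macrophages went from 246 to 132 cells and the neutrophils from 216 to 354, and S100a8 in monocytes/macrophages stood at 4272 CPM and S100a9 at 931. On day 3 the 4 B cells held 7 S100a8 UMIs (665 CPM, 267 to 1369), an interval that covers the monocyte/macrophage level of 1170. B, T and NK cells together (10 cells) stood at 244 CPM (126 to 426). On day 5 the 28 B cells held S100a8 at 54.3 CPM (17.6 to 127), below the 174 CPM (164 to 185) of monocytes/macrophages. But the 18 NK cells of that day held 104 S100a8 UMIs (1255 CPM), so the lymphoid values of day 5 did not form 1 level. Thinned to 1000 UMIs, S100a8 was found on day 5 in 8.54% of monocytes/macrophages and 6.14% of B, T and NK cells, and on day 1 in 90.1% and 81.1%.

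**Figure D3:**
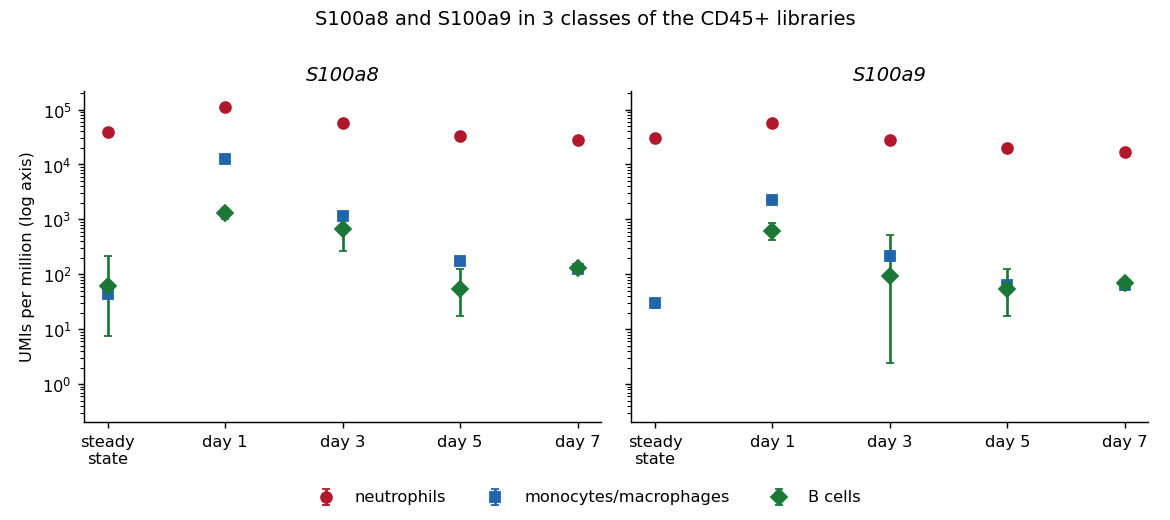
S100a8 (left) and S100a9 (right) in CPM (log axis) at steady state and on days 1 to 7 of the CD45+ libraries, for neutrophils (circles), monocytes/macrophages (squares) and B cells (diamonds), with exact 95% Poisson intervals. On day 7 the squares and diamonds coincide (125 and 129 for S100a8), on day 1 they are apart (12485 and 1291), and S100a9 has no B cell point at steady state because 0 UMIs were counted.

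A second measure was the share of S100a9 in the UMIs of the pair. On day 1 of the CD45+ libraries S100a9 was 33.9% of the pair in neutrophils (33.6 to 34.1), 32.0% in B cells (23.0 to 42.1) and 32.3% in T cells (24.5 to 41.0). It was 15.3% in monocytes/macrophages (14.9 to 15.6), an interval that overlapped none of these. On day 3 it was 33.3% in neutrophils (32.8 to 33.8) and 15.8% in monocytes/macrophages (15.1 to 16.6), and on day 5 it was 37.4% (36.1 to 38.7) and 26.9% (24.7 to 29.2).

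By day 7 the classes had come together, at 37.9% in neutrophils (36.3 to 39.5), 34.0% in monocytes/macrophages (31.3 to 36.7) and 34.8% in B cells (31.0 to 38.8). At steady state neutrophils (43.5%, 40.5 to 46.6) and monocytes/macrophages (41.0%, 35.2 to 47.0) overlapped too. In the heart pool S100a9 was 54.1%, 51.5% and 48.9% of the pair in neutrophils on days 1, 3 and 5, and 35.4%, 46.1% and 46.7% in monocytes/macrophages. The lower share in monocytes/macrophages of day 1 was thus seen in both sets. By cluster, it was 14.8% in the Arg1 cluster of the CD45+ set and 32.2% in that of the pool, 14.7% in the classical cluster and 33.5% in the Trem2 cluster of the CD45+ set. The sets differ in chemistry, annotation and sort, so what sets their levels of this share apart cannot be told apart.

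**Figure D4:**
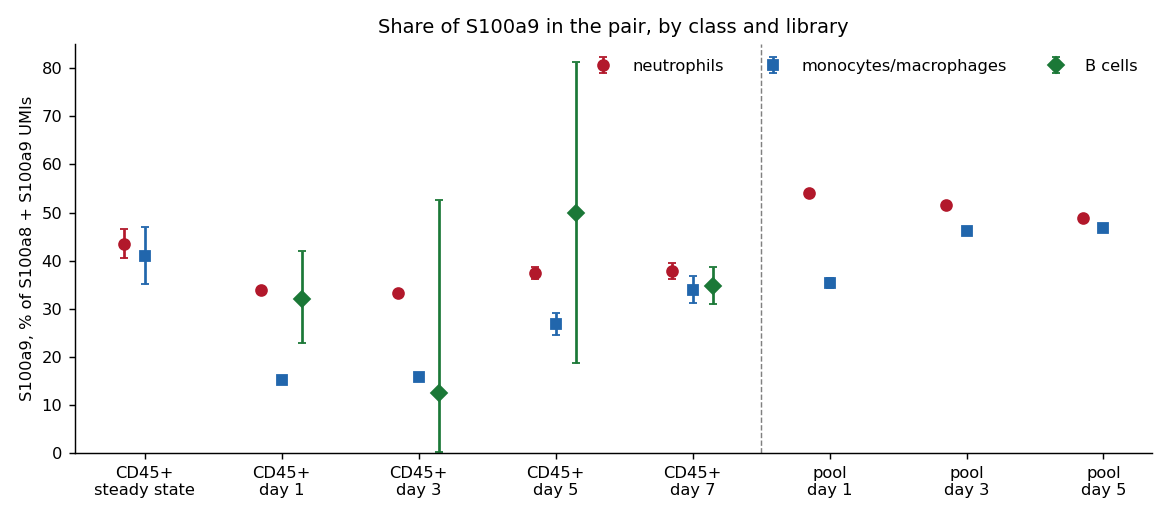
S100a9 as a percentage of the S100a8 and S100a9 UMIs in neutrophils (circles), monocytes/macrophages (squares) and B cells (diamonds) of each CD45+ library and each day of the CD11b+ heart pool, with exact 95% binomial intervals. Monocytes/macrophages stand at 15.3% and 15.8% on days 1 and 3 of the CD45+ libraries, below the neutrophils at 33.9% and 33.3%, and come closer on day 7 (34.0% and 37.9%) and at steady state (41.0% and 43.5%).

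The surface antibodies of the heart pool gave a readout that took no part in the clustering. Monocytes/macrophages were split within each day into quartiles by Ly6C, a surface protein that is high on inflammatory monocytes. From the lowest to the highest quartile S100a8 read 149, 340, 958 and 2095 CPM on day 1, 37.4, 48.2, 245 and 710 on day 3, and 52.2, 49.4, 54.2 and 741 on day 5. The top quartile was above the bottom in all 3 days, by 3.82 to 4.25 on the log2 scale for S100a8 and by 3.66 to 3.91 for S100a9. On day 5 the lower 3 quartiles held like levels and the top one stood apart.

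The other 4 genes were higher in the top Ly6C quartile on all 3 days, by less: 0.84 to 1.22 for S100a11, 0.61 to 1.04 for S100a6, 0.47 to 1.01 for S100a4 and 0.20 to 0.67 for S100a10. By quartiles of Ccr2, a chemokine receptor of the same monocytes, S100a8 was higher in the top quartile by 1.30 to 3.08 and S100a4 was lower on all 3 days (-0.34 to -0.01). By F4/80, a macrophage protein, S100a8 had no common sign (-1.05 to 1.42) and S100a4 was lower on all 3 days (-0.75 to -0.56). In the monocytes/macrophages of the blood and heart pool the same Ly6C split gave no common sign for the pair: S100a8 was higher in the top quartile in 3 of 7 hashtags (-1.42 to 1.68, median -0.32) and S100a9 in 3 of 7 (-1.61 to 0.36, median -0.88). S100a4 (0.52 to 1.40), S100a6 (0.49 to 1.83), S100a10 (0.47 to 3.46) and S100a11 (0.32 to 1.39) were higher there in 7 of 7. The share of all genes that were higher in the top Ly6C quartile was not counted in either pool. The neutrophil markers of the heart pool cells rose over the Ly6C quartiles too, at 1544, 1949, 2523 and 3464 CPM on day 1, 632, 727, 1033 and 2010 on day 3, and 617, 586, 810 and 1286 on day 5. Retnlg alone, which is among them, did not rise steadily. It read 4.59, 71.7, 3.34 and 28.1 CPM on day 1, 6.14, 3.34, 3.72 and 13.5 on day 3, and 2.08, 4.68, 2.84 and 20.2 on day 5. The median Ly6G antibody count went from 107 to 128 on day 1, from 99 to 125.5 on day 3 and from 90 to 123.5 on day 5, and its part in the S100a8 pattern was not tested.

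In the neutrophils of the blood and heart pool, quartiles of CD62L, an adhesion protein that is shed on activation, ordered the pair as well. S100a8 was higher in the top quartile in 7 of 7 hashtags, by 0.46 to 1.31 on the log2 scale (median 0.76). S100a9 was higher in 7 of 7 (0.31 to 1.31), S100a6 in 7 of 7 (0.63 to 1.74) and S100a11 in 7 of 7 (0.09 to 0.87). S100a4 was higher in 4 of 7 and S100a10 in 3 of 7, both on few UMIs. How many of all genes were higher in the top CD62L quartile of every hashtag was not counted. By CXCR4, a receptor of aged neutrophils, S100a8 moved only between -0.08 and 0.12. Over all cells, quartiles of the Ly6G antibody set S100a8 apart by 4.73 to 8.41 and S100a4 by -5.20 to -2.21, the order of the classes again.

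**Figure D5:**
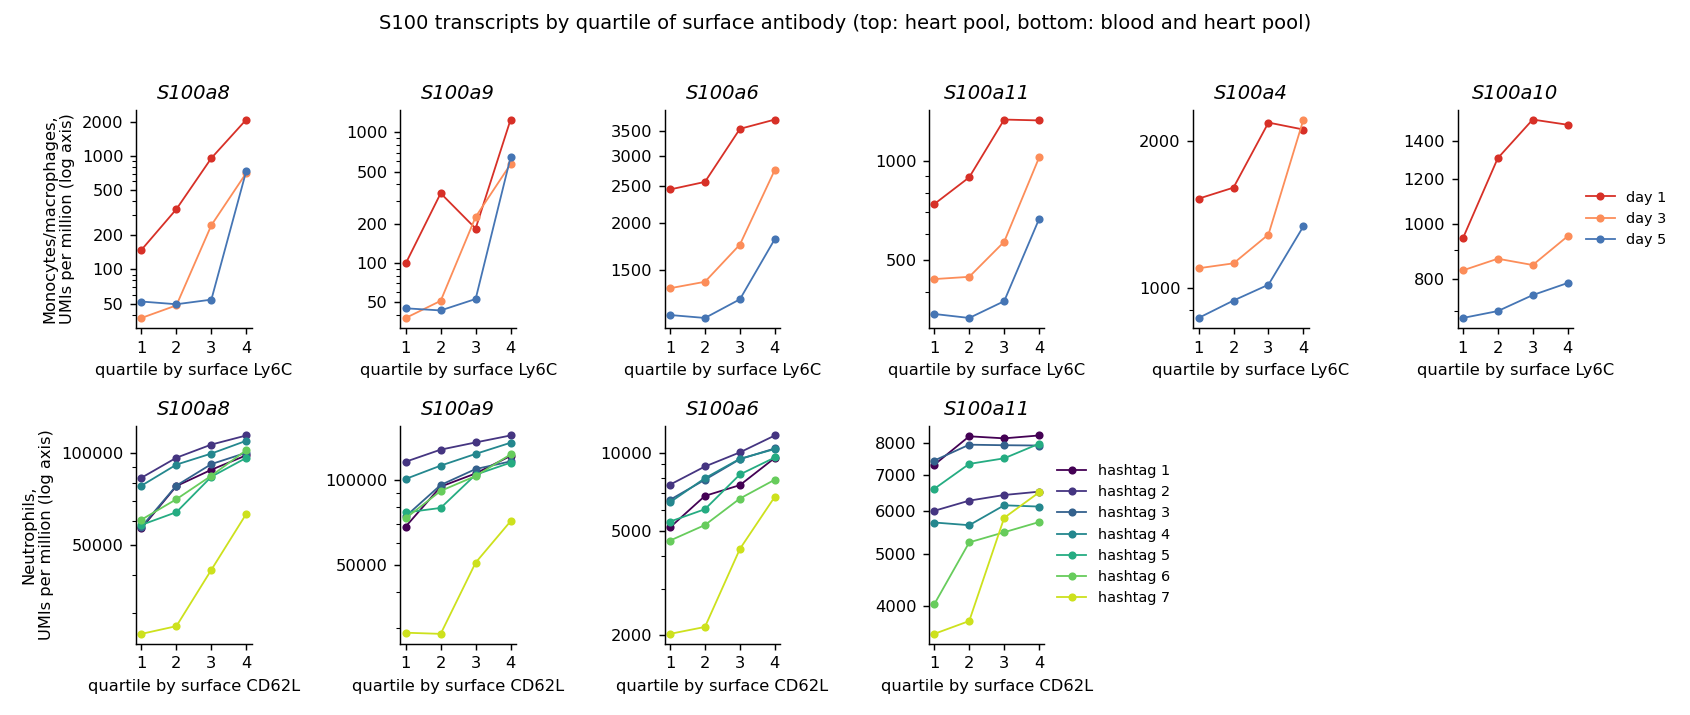
CPM (log axes) of S100 transcripts in quartiles of a surface antibody, from lowest (1) to highest (4): monocytes/macrophages of the CD11b+ heart pool by Ly6C for each day (top) and neutrophils of the blood and heart pool by CD62L for each hashtag (bottom, S100a4 and S100a10 not drawn). S100a8 rises from 149 to 2095 over the Ly6C quartiles of day 1, and S100a8, S100a9, S100a6 and S100a11 are higher in the top than in the bottom CD62L quartile within each of the 7 hashtags.

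In the blood and heart pool S100a8 and S100a9 were again higher in neutrophils than in monocytes/macrophages within each hashtag. S100a8 in neutrophils read 82081, 101500, 84151, 96175, 77307, 80865 and 40325 CPM in hashtags 1 to 7, and in monocytes/macrophages 612, 3356, 793, 2950, 1579, 2424 and 561. The pair held 18.2%, 23.3%, 18.5%, 21.5%, 17.3%, 18.0% and 8.62% of neutrophil UMIs. Other classes of this pool were small and did not keep the order seen in the heart: over all hashtags S100a8 stood at 41484 CPM in 45 platelet-like cells, 3413 in 21 B cells, 2662 in 42 mast cell or basophil-like cells and 1755 in 59 T cells, against 1767 in monocytes/macrophages. Of the 1160 S100a8 UMIs in B cells, 702 came from 2 cells of hashtag 4 and 414 from 5 cells of hashtag 5, and in the other hashtags with B cells it ran from 153 to 223 CPM. The monocyte/macrophage levels of S100a8 in this pool were thus not above the B cell level in every hashtag, and the part of free RNA or of cell pairs was not tested.

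In the neutrophils of the 7 hashtags S100a4 ran from 23.1 to 37.8 CPM and S100a10 from 8.66 to 16.5, where the monocytes/macrophages had 2413 to 2590 and 537 to 1046. S100a11 ran from 4962 to 8027 CPM in neutrophils against 916 to 1363 in monocytes/macrophages, and S100a6 from 3916 to 9666 against 3005 to 3727. In these ranges S100a4 and S100a10 were lower and S100a11 and S100a6 higher in neutrophils. How many of all genes separate the classes in this way was not counted. A nonclassical monocyte-like cluster of 940 cells, led by Ace, Ear2 and Spn, held S100a8 at 4144 CPM against 1110 in the classical cluster of 2035 cells, and S100a9 at 55.3% and 45.2% of the pair, with Retnlg, a neutrophil gene, at 507 and 105 CPM. Neutrophils of the same pool had S100a9 at 55.3% of the pair, and the part of neutrophil RNA in the nonclassical cluster was not tested. S100a10 was lower in the nonclassical cluster (96.9 CPM) than in the classical one (775).

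Genes that work with S100 proteins were read from lists of receptors, partners, regulators and response genes. Among S100 receptors, 3 of the 8 tested were lower and 1 higher on day 5 than on day 1 in neutrophils, and 3 lower and 0 higher in monocytes/macrophages, where 5.60% and 5.26% of all genes were lower and 2.10% and 3.95% higher. Tlr4, the receptor of calprotectin, fell in both classes, with a log2 change of -2.47 in neutrophils (SE 0.52, edgeR adjusted p = 0.0090) and -1.74 in monocytes/macrophages (SE 0.21, 0.0133). In neutrophils Tlr4 read 70.4, 59.2 and 19.1 CPM on days 1, 3 and 5 of the CD45+ set (the last from 2 UMIs) and 243, 58.0 and 72.8 in the pool. Cd14, the co-receptor of TLR4, fell in both (-1.88, edgeR adjusted p = 0.0364, and -0.94, 0.0221). Cd33, an inhibitory lectin that can bind S100a9, fell in neutrophils (-2.26, 0.0059). The gene called higher in neutrophils was Scarb1, a scavenger receptor of lipoproteins, with 0 UMIs in both day 1 sums and 2 and 16 UMIs on day 5, too few for a fold. Bsg, a further S100a9 receptor, fell in monocytes/macrophages (-0.76, 0.0431).

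Among binding partners, 5 of 13 tested were lower and 0 higher in neutrophils from day 1 to day 5, and 2 of 14 lower and 0 higher in monocytes/macrophages (all genes 5.60% and 5.26% lower). Anxa2, the annexin that holds S100a10, fell in monocytes/macrophages with it (-1.41, SE 0.20, edgeR adjusted p = 0.0188), from 1767 to 687 CPM in the CD45+ set and from 1287 to 653 in the pool. Plaur, the receptor of urokinase, fell in both classes (-2.35 and -2.10, edgeR adjusted p = 0.0063 and 0.0059). Anxa3, an annexin abundant in neutrophils, fell there by day 3 (-2.91, 0.0016) and by day 5 (-2.65, 0.0022), and Anxa11 by day 5 (-1.87, 0.0160). The other two were Anxa1, the partner of S100a11 (-2.19, 0.0269), and Anxa2 (-1.64, 0.0269). Before TMM scaling, Anxa1 was nearly level in pool neutrophils, with 220 of 1118537 UMIs on day 1 and 172 of 920221 on day 5. Anxa2 was nearly level in CD45+ neutrophils, with 1035 of 866513 UMIs and 111 of 104485, the last from 40 cells. Each was lower on day 5 in the other set. The calls of list genes were read from the fit of the report only.

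Of the regulators of the pair, 0 of 8 passed in neutrophils (0 of 8 on day 3 as well), and 2 of 7 were lower in monocytes/macrophages (all genes 7.70% and 9.21% called). Those were Cebpe, a factor of granulocyte maturation (-3.46, SE 0.31, edgeR adjusted p = 0.0078), from 17.2 to 2.38 CPM in the CD45+ set and from 19.2 to 1.72 in the pool, and Hif1a, the hypoxia factor (-1.62, SE 0.23, 0.0177). Of 9 TLR4 response genes, 6 were lower in monocytes/macrophages (all genes 5.26% lower), among them Ptgs2 (-2.05, 0.0071), Il1b (-1.99, 0.0077) and Cxcl2 (-2.19, 0.0079), and 1, the chemokine Ccl3, in neutrophils (-1.79, 0.0394). The list's median was -1.03 in monocytes/macrophages and -0.50 in neutrophils, where those of all genes were -0.01 and -0.03.

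In the remaining lists 1 gene was called in all. Of 8 NADPH oxidase and arachidonate partners, which calprotectin is known to feed, 0 passed in either class (medians -0.88 in neutrophils and -0.41 in monocytes/macrophages). Of 10 other calcium-binding genes, set as a comparison, 0 passed in either class (medians -0.59 and -0.03). Of the 12 other S100 genes, 3 were high enough to be tested in each class, and S100a1 was higher on day 5 in monocytes/macrophages (1.19, SE 0.17, edgeR adjusted p = 0.0188), from 48.2 to 137 CPM in the CD45+ set and from 29.9 to 77.3 in the pool. It moved against the 4 genes called in that class. From day 1 to day 3, Tlr4 (-1.89, 0.0452) and Anxa3 were the only list genes that passed in neutrophils, and 0 of the list genes passed in monocytes/macrophages.

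Likeness over 21 sums of named classes in the CD45+ libraries and the heart pool was measured as Pearson's r of log2(CPM + 1) among 2352 genes with a mean of at least 50 CPM. The sums share libraries and depth, so r is a description. S100a8 and S100a9 had r = 0.98 with each other. The genes most like S100a8 were Retnlg (0.97), Il1f9 (0.96) and Lcn2 (0.96), and those most like S100a9 were G0s2 (0.98), Il1f9 (0.97) and Chil1 (0.97). S100a11 was closest to Lmnb1 (0.95), Il1r2 (0.93) and Ifitm1 (0.91), and S100a6 to Ltb4r1 (0.95), AA467197 (0.89) and Cxcl3 (0.89).

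S100a4 and S100a10 went with each other (r = 0.83) and against S100a8 (-0.66 and -0.73). The genes most like S100a4 included Il7r (0.92) and Slc25a3 (0.91), and S100a10 most like Lgals1 (0.93), Vcp (0.91) and Nt5c (0.91). S100a6 stood between the groups, at 0.68 with S100a8, 0.78 with S100a11 and -0.01 with S100a4.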

How the data were processed

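Gene and antibody UMI counts per cell barcode were deposited by the authors; Cell Ranger 3.0.2 is named per the file headers of the pools, and mm10 and GRCm38 per the submitters' processing notes. Barcodes with under 200 genes or over 10% mitochondrial UMIs were left out. Scrublet (run in scanpy) marked 18 CD45+ barcodes as doublets, which were left out. Barcodes with several hashtags were left out of the pools, as were those with no hashtag (458 in the heart pool and 166 in the blood and heart pool). Scrublet was not run on the pools, so pairs of cells with the same hashtag were not marked there. Cells were clustered with scanpy 1.11.5 (2000 variable genes without S100 genes, 30 components, 15 neighbours, Leiden resolution 0.5) and named from fixed markers. Counts were summed per class, day and experiment (at least 30 cells, 27514 shared genes in the fits) and fitted with edgeR 4.0.16 (R 4.3.3, TMM, experiment as block, 2 residual degrees of freedom per class); DESeq2 1.42.0 was an alternative. The scaled log2 changes of 1 experiment add 0.5 UMI per sum. The script was tested on simulated data.

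Each member was named everywhere, with its 3 most correlated genes (1 of those of S100a4 is not reported here) and up to 3 called genes per list by adjusted p. The members and lists were chosen with earlier results of these data known. The experiments pair the days by design (same sort, chemistry and annotation within an experiment). Alternatives changed the scaling, library totals, filter, tool, block, days in the fit, mitochondrial limit, clustering and class rule, and left out each sum in turn. One more, leaving out a pool cluster led by Retnlg, was chosen after seeing the data. The blood and heart pool entered no comparison.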

Additional observations from a re-analysis of the deposited data

Results flagged for a closer look

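The blood and heart pool was used in no comparison, since the labels tie its hashtags to no condition, yet all 6 genes were counted there above the limit that a count of 0 allows. Over all its neutrophils, S100a8 stood at 85372 CPM, S100a9 at 105617, S100a6 at 8008, S100a11 at 6768, S100a4 at 28.3 and S100a10 at 11.3. Over all its monocytes/macrophages, S100a8 stood at 1767 CPM, S100a9 at 1822, S100a6 at 3386, S100a4 at 2488, S100a11 at 1075 and S100a10 at 687. S100a9 made up 55.3% of the UMIs of the S100a8 and S100a9 pair in these neutrophils and 50.8% in these monocytes/macrophages, and at most 43.5% in either class of a CD45+ library. In the CD11b+ heart pool, which holds heart cells only, S100a9 made up 51.8% of the pair in neutrophils and 44.2% in monocytes/macrophages. The libraries differ in chemistry, annotation, sort and tissue, and the part of each in this share was not tested.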

How the results depend on the processing

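Alternatives gave 732 recomputed log2 changes of the 6 genes, of which 605 kept direction and side of the threshold, 81 gained a call, 20 lost one and 26 turned sign. Counts of members past the threshold (edgeR adjusted p under 0.05) moved as follows. The share of all genes called is given only for the fits of the report, not for these alternatives. For day 3 against day 1 in neutrophils (0 in the report) they were 1 with RLE scaling, 3 with DESeq2, 3 with no filter on low counts and 2 with only the 2 days in the fit. For day 5 against day 1 in neutrophils (2) they were 1 with total counts, 1 with only the 2 days, 1 at Leiden resolution 1.0 and 0 with classes from each cell's own markers. In monocytes/macrophages, day 3 against day 1 (0) gave 4 with DESeq2, 3 with no filter and 1 with only the 2 days, day 5 against day 1 (4) gave 2 with only the 2 days, and day 5 against day 3 (0) gave 5 with only the 2 days. The difference between classes (0) gave 2 with no filter for day 3 against day 1, and 2 with no filter and 1 with total counts for day 5 against day 1. The fit with no replicate block (experiment term left out) gave 0 called in each comparison, so the calls of day 5 against day 1 (2 in neutrophils, 4 in monocytes/macrophages) rest on pairing the days within an experiment. The causes of the other changes were not tested, except that fewer sums enter a fit of 2 days.

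Leaving out each sum in turn gave counts from 0 to 3 for day 3 against day 1 and from 0 to 3 for day 5 against day 1 in neutrophils. In monocytes/macrophages they ran from 0 to 5 (5 in the absence of the pool sum of day 1) for day 3 against day 1, from 3 to 6 for day 5 against day 1, and from 0 to 5 (without CD45+ day 1) for day 5 against day 3. For the difference between classes they ran from 0 to 2 (without pool day 1) for day 3 against day 1 and for day 5 against day 1, and from 0 to 1 for day 5 against day 3.

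Signs turned mostly in S100a4 and S100a10 of neutrophils, which rest on few UMIs. With total counts, day 3 against day 1 gave 0.29 for S100a4, 0.46 for S100a10 and 0.088 for S100a11, day 5 against day 1 gave 0.81 for S100a4 and 0.23 for S100a10, and the class difference of S100a6 for day 5 against day 1 was -0.11. S100a10 gave 0.011 without the block (day 3 against day 1). With each cell's own markers S100a4 gave 0.25 (day 5 against day 1), S100a10 gave 0.20 (day 5 against day 3) and 0.023 (class difference, day 5 against day 1). With a mitochondrial limit of 20% S100a4 gave 0.0039 (day 5 against day 1). Leaving out 1 sum gave these ranges across 0 in neutrophils: S100a4 -1.02 to 0.55 and S100a10 -1.11 to 0.72 (day 3 against day 1), S100a4 -1.69 to 0.36 (day 5 against day 1), and S100a8 -1.39 to 0.34, S100a9 -1.11 to 0.16, S100a4 -1.30 to 0.75 and S100a10 -1.61 to 0.26 (day 5 against day 3). In monocytes/macrophages they were S100a4 -0.68 to 0.048 (day 3 against day 1), and S100a8 -3.20 to 0.15 and S100a9 -2.42 to 0.29 (day 5 against day 3). For the class difference of day 5 against day 1 they were S100a4 -1.54 to 0.19 and S100a10 -1.32 to 0.29. For day 3 against day 1 it was S100a9 -2.07 to 0.26, S100a4 -0.60 to 0.42 and S100a10 -1.29 to 0.21, and for day 5 against day 3 it was S100a9 -1.35 to 0.26, S100a4 -1.38 to 0.081 and S100a10 -0.42 to 1.04. Depth limits S100a4 and S100a10 in neutrophils and every lymphoid value before day 7.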
